A study of Mus musculus with 6 samples.

Results

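Carboxylesterase genes of the Ces1, Ces2 and Ces3 subfamilies were examined in mouse kidneys after renal ischemia-reperfusion injury (IRI). The 9 members were Ces1d, Ces1e, Ces1f, Ces1g, Ces2a, Ces2c, Ces2e, Ces2g and Ces3a, of 21367 genes in the table. They were picked out by gene symbol, with the Ptpn6+/mev and wild-type values of these same libraries already known, so their difference between the groups is given here as a description. There were 3 libraries from Ptpn6+/mev mice and 3 from their wild-type littermates, 1 mouse a library, all aged 7 weeks. The Ptpn6+/mev mice are heterozygous for viable motheaten, a T-to-A change at a splice site of Ptpn6, and are labelled as an SHP1 knockdown. Ptpn6 encodes SHP-1, a tyrosine phosphatase, and 1 allele stayed intact in every Ptpn6+/mev mouse. All mice were on a C57BL/6 background. Each mouse lost its right kidney, had the left pedicle clamped for 34 min under pentobarbital with heparin, and gave its left kidney 24 h later. Uninjured kidneys were not analysed here, so the levels describe injured kidneys only.

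Carboxylesterases are serine hydrolases that mostly reside in the lumen of the endoplasmic reticulum. They cleave ester and amide bonds in drugs, prodrugs and endogenous lipids such as triacylglycerols and cholesteryl esters. Liver, small intestine and the renal proximal tubule are among their main sites of expression. In the mouse the genes form tandem clusters of close paralogs, the products of repeated duplication.

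All 9 members lie on chromosome 8 of GRCm38. The 4 Ces1 members follow each other on the minus strand, with Ces1d at chr8:93166068-93197838, Ces1e at chr8:93201218-93229619, Ces1f at chr8:93256236-93279747 and Ces1g at chr8:93302369-93337308. The Ces2 members lie on the plus strand, with Ces2a at chr8:104734003-104741634, Ces2c at chr8:104847068-104854483, Ces2e at chr8:104926260-104934672 and Ces2g at chr8:104961718-104969537. Ces3a follows at chr8:105048601-105058413, also on the plus strand. The Ces1 transcripts have 14 exons each, the Ces2 transcripts 12 and the Ces3a transcript 13.

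What makes these genes 1 family can be seen around the serine of the active site. The 63 coding bases around that codon are printed because they show both the shared core and the changes that tell neighbours apart. They were read from GENCODE M21 transcripts, 5′ to 3′ in the sense of the gene, with the serine codon in capitals.
Ces1d: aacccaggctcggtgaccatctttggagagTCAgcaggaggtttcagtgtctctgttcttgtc
Ces1e: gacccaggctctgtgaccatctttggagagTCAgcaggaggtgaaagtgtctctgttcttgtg
Ces1f: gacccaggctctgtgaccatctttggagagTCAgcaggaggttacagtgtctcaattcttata
Ces1g: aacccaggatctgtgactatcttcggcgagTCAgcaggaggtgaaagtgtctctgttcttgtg
Ces2a: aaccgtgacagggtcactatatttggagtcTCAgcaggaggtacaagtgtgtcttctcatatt
Ces2c: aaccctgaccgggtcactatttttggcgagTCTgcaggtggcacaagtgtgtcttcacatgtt
Ces2e: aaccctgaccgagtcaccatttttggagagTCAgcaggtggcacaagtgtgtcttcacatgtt
Ces2g: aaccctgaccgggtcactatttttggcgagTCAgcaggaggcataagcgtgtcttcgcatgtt
Ces3a: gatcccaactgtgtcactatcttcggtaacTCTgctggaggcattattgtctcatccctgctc
In the Ces2 members the stretch lies within exon 5, for example at chr8:104850744-104850806 in Ces2c and chr8:104929791-104929853 in Ces2e. In the Ces1 members and Ces3a it is joined from exons 5 and 6, so that in Ces1d its ends lie at chr8:93186116-93187802 with an intron between them. Within this stretch Ces2c differed from Ces2e at 4 bases, whereas Ces1d differed from Ces2c at 20. Over the whole coding sequence Ces1d and Ces1g were 81.5% identical, and Ces2c and Ces2g 85.7%. Identity between the subfamilies was lower, for example 64.7% between Ces1d and Ces2c.

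Reads from such paralogs can be assigned to the wrong gene, and the members differ in how exposed they are. Of all windows of 50 bases in the longest coding transcript, 1.28% in Ces1d, 1.6% in Ces1f, 3.36% in Ces2e and 3.95% in Ces2g also occurred in another annotated gene. Ces2c stood out, with 42.2% of its windows shared. Of its 1921 windows, 734 matched the pseudogene Ces2d-ps, 363 matched Gm8798 and 99 matched Ces2b. Ces2d-ps had no row under that name, so its reads could not be seen apart. In Ces3a 617 windows matched Ces3b, and in Ces2a 399 matched Gm7208. Among the members with many reads, Ces2c thus had the most sequence shared with other genes, which leaves its level less certain. The paper reports paired reads longer than these windows, so a smaller part of whole fragments would match another gene exactly. How many of its reads could be assigned to another gene was not measured. None of the 9 members had a fractional count.

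Library depth ran from 10271590 to 12361745 assigned counts. On the first principal component wild-type mouse 2 stood apart at 53.9, while the other 5 libraries lay between -17.5 and -3.8, so values without it are given beside the members and beside many other genes. Ptpn6 itself had FPKM values of 11.85, 14.66 and 13.61 in Ptpn6+/mev mice and 17.47, 10.87 and 15.44 in wild-type mice, and the groups overlapped. A splice-site change need not alter the amount of transcript, so this level does not test the labels. The kidney samples carried proximal tubule transcripts such as Slc34a1, the sodium-phosphate cotransporter, at 175.57 to 312.71 FPKM. Of 8 hepatocyte markers, Ahsg, Cps1 and Mup3, named after their values were seen, were at 0 in all 6 libraries, while others, such as Ttr at 19.18 to 38.14 FPKM, were detected.

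Carboxylesterase mRNA was dominated by 3 genes. Each was lower in every Ptpn6+/mev kidney than in any wild-type kidney, an arrangement found in 6.38% of all genes tested. Levels are given in FPKM, fragments per kilobase of transcript scaled to library size, which allows genes of different length to be set side by side. In wild-type kidneys the mean level was 218 ± 42.8 FPKM for Ces2c (SD, n = 3), 127 ± 22.9 for Ces1f and 56.7 ± 21.8 for Ces1d. In Ptpn6+/mev kidneys it was 125 ± 9.79, 64.0 ± 6.36 and 20.9 ± 1.05 (SD, n = 3). The ranges of these genes did not overlap with each other within either group, so the order Ces2c, Ces1f, Ces1d held in every kidney. Because bulk kidney tissue was sequenced, fewer cells that express a gene and less mRNA per cell cannot be told apart.

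**Figure D1:**
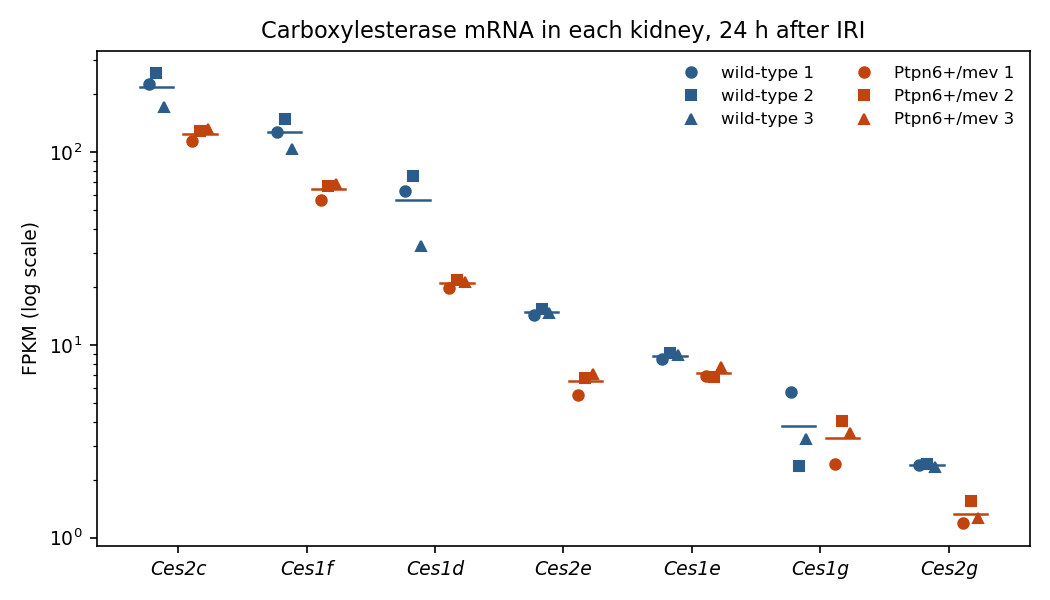
FPKM (log scale) of the 7 carboxylesterase genes that passed the filter on low counts, in each of the 3 wild-type and 3 Ptpn6+/mev kidneys. Points are single mice, bars are group means, and genes are ordered by their wild-type mean. The groups are apart in all genes but Ces1g, with Ptpn6+/mev kidneys lower, an arrangement found in 6.38% of all genes tested.

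Ces1d, also called triacylglycerol hydrolase for its part in mobilising stored triacylglycerol, had the lowest level relative to wild-type among the 7 members that passed the filter on low counts. Its FPKM was 19.75, 21.75 and 21.30 in the 3 Ptpn6+/mev mice and 62.85, 74.75 and 32.55 in the 3 wild-type mice. The Ptpn6+/mev kidneys lay close together, within 1.1-fold, whereas the wild-type kidneys spread over 2.3-fold, with wild-type mouse 3 nearest to the Ptpn6+/mev values. The mean was 36.9% of wild-type, a log2 fold change of -1.52 (SE 0.29). It was -1.21 without wild-type mouse 2 and -1.81 without wild-type mouse 3.

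Ces1f, a close relative of Ces1d that also acts on triacylglycerol, was the second most abundant member. Its FPKM was 56.67, 66.98 and 68.28 in Ptpn6+/mev mice and 127.77, 149.00 and 103.25 in wild-type mice. Wild-type mouse 3 was again the lowest of its group and still lay above all Ptpn6+/mev kidneys. The mean was 50.5% of wild-type (log2 fold change -1.06, SE 0.16), and the log2 fold change was -0.88 without wild-type mouse 2.

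Ces1e, known as egasyn, holds β-glucuronidase in the endoplasmic reticulum. Its FPKM was 6.93, 6.83 and 7.65 in Ptpn6+/mev mice and 8.41, 9.04 and 8.85 in wild-type mice. Both groups were tight and did not overlap, but the gap was small, with a mean at 81.4% of wild-type (log2 fold change -0.36, SE 0.13, and -0.29 without wild-type mouse 2). The gene for its partner, Gusb, named after its values were seen, had log2 fold change 0.11 (SE 0.11) and overlapping groups, and lay between 0.01 without wild-type mouse 2 and 0.21 without wild-type mouse 1.

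Ces1g, a lipid hydrolase best known from liver, was the exception. Its FPKM was 2.40, 4.03 and 3.49 in Ptpn6+/mev mice and 5.73, 2.36 and 3.24 in wild-type mice. The groups overlapped, and the lowest value of all came from wild-type mouse 2, the kidney with the highest Ces1d and Ces1f. The log2 fold change of -0.25 (SE 0.33) turned to 0.17 when wild-type mouse 1 was left out and was -0.46 without wild-type mouse 2.

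Among the Ces2 members, whose products favour esters with a large alcohol group, Ces2c carried nearly all of the signal. Its FPKM was 113.67, 128.14 and 132.34 in Ptpn6+/mev mice and 225.77, 256.27 and 171.84 in wild-type mice. The order of the 3 wild-type mice was the same as in Ces1d and Ces1f, with mouse 2 highest and mouse 3 lowest. The mean was 57.2% of wild-type (log2 fold change -0.88, SE 0.17), and it was -0.70 on the log2 scale without wild-type mouse 2.

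Ces2e was far less abundant and more even between wild-type mice, within 1.08-fold against 1.49-fold for Ces2c, but not between Ptpn6+/mev mice, with 1.28-fold against 1.16-fold. Its FPKM was 5.53, 6.76 and 7.09 in Ptpn6+/mev mice and 14.27, 15.41 and 14.55 in wild-type mice. The groups stood far apart compared with their spread, and leaving out wild-type mouse 2 or 3 moved the log2 fold change of -1.27 (SE 0.14) only to -1.20 or -1.30. The mean was 43.8% of wild-type.

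Ces2g had the lowest level of the 7 members that passed the filter. Its FPKM was 1.19, 1.55 and 1.26 in Ptpn6+/mev mice and 2.39, 2.41 and 2.34 in wild-type mice, from 35 to 83 counts a library. The wild-type values were almost equal, and the mean in Ptpn6+/mev mice was 56.0% of wild-type (log2 fold change -0.91, SE 0.21, and -0.85 without wild-type mouse 2).

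Ces2a and Ces3a did not pass the filter on low counts. Ces2a had 0 counts in all 6 libraries, which allows up to 0.243 to 0.292 CPM, counts scaled to library size, depending on the library. This limit covers counting error only. Ces3a had 0, 0 and 1 counts in Ptpn6+/mev mice and 4, 0 and 2 in wild-type mice. No difference was detectable for Ces2a or Ces3a at this depth.

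The order of the less abundant members differed between the groups. In wild-type kidneys Ces2e lay above Ces1e in every mouse, whereas in Ptpn6+/mev kidneys their ranges overlapped. Ces1g and Ces2g overlapped in wild-type kidneys and were apart in Ptpn6+/mev kidneys. Ces2e and Ces1e, which start from neighbouring levels in wild-type kidneys, thus changed places in the ranking of group means.

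In a quasi-likelihood fit of edgeR over 13036 genes, all 7 members that passed the filter had negative log2 fold changes, with a median of -0.91 against -0.002 over all genes tested. Ces2e alone fell past a false discovery rate (FDR) of 0.05, with an adjusted p of 0.0257. In that fit 0.069% of all genes tested were called lower, 9 genes, beside 9 called higher. The adjusted p was 0.0685 for Ces1f, 0.0918 for Ces2c, 0.0943 for Ces1d, 0.133 for Ces2g, 0.325 for Ces1e and 0.836 for Ces1g in the same quasi-likelihood fit. Since the members were chosen with this contrast known, these values describe them and do not test them. Over all genes tested, 12.2% had an unadjusted p under 0.05, and the exact test of edgeR called 2.99% and DESeq2 2.98% in either direction, the background for the lists that follow. The labels do not pair the mice, and the p-values set the group difference against the spread between mice within each group.

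How many members were called depended on the tool and on the wild-type libraries. By edgeR's exact test and by DESeq2's Wald test 5 members were called lower, Ces1d, Ces1f, Ces2c, Ces2e and Ces2g, where 1.78% and 1.88% of all genes were called lower. Without wild-type mouse 2 the quasi-likelihood fit called 4 members lower, Ces1d, Ces1f, Ces2c and Ces2e, beside 1.01% of all genes. Without wild-type mouse 3 it called the same 4 members, beside 0.384% of all genes. Leaving out wild-type mouse 1 or any single Ptpn6+/mev mouse left 0 members called, in fits that called 0 to 7 of all genes lower. By the values themselves, 6 of the 7 members had each Ptpn6+/mev kidney below each wild-type kidney in FPKM, an arrangement found in 6.38% of all genes tested.

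The summed FPKM of the 9 members gives the level of the whole family. The sum was 206, 236 and 241 in Ptpn6+/mev mice and 447, 509 and 337 in wild-type mice, and the groups did not overlap. The mean sum of 228 ± 18.9 (SD, n = 3) was 52.8% of the wild-type mean of 431 ± 87.1 (SD, n = 3). The Ces1 members summed to 95.5 ± 8.40 against 196 ± 44.2 FPKM, or 48.7% of wild-type. The Ces2 members summed to 132 ± 11.0 against 235 ± 42.9 FPKM, or 56.3%. When the counts of each subfamily were added before the edgeR fit, which removes any misassignment among the members of a subfamily, the log2 fold change was -1.11 (SE 0.19) for Ces1 and -0.91 (SE 0.16) for Ces2.

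**Figure D2:**
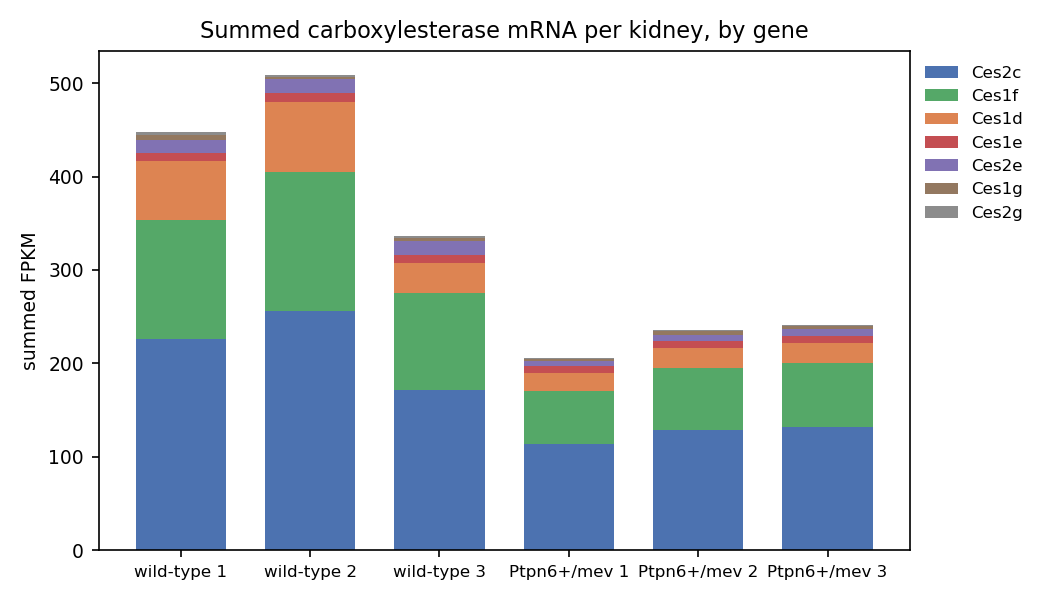
Summed FPKM of the carboxylesterase members in each kidney, stacked by gene, for 3 wild-type and 3 Ptpn6+/mev mice. Ces2c, Ces1f and Ces1d make up most of every bar, and the wild-type sums of 337 to 509 lie above the Ptpn6+/mev sums of 206 to 241. Ces2a and Ces3a are too low to be seen and are left out.

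The share of each member in the summed FPKM of the family was compared between the groups as a description. Ces2c made up 55.1%, 54.3% and 54.8% of the summed FPKM in Ptpn6+/mev mice and 50.5%, 50.3% and 51.0% in wild-type mice. The ratio of Ces2c to Ces1f was 2.01, 1.91 and 1.94 in Ptpn6+/mev mice and 1.77, 1.72 and 1.66 in wild-type mice, with no overlap. Ces1e, with the smallest fold change among the members with groups apart, took a larger share in Ptpn6+/mev kidneys. It was 3.36%, 2.89% and 3.17% there and 1.88%, 1.78% and 2.63% in wild-type kidneys, with no overlap, and its mean share was 150% of the wild-type one. The share of Ces1g was 1.16%, 1.71% and 1.45% in Ptpn6+/mev mice and 1.28%, 0.463% and 0.962% in wild-type mice, where the groups overlapped and the mean share was 160% of the wild-type one. The share of Ces1d was 8.82% to 9.58% in Ptpn6+/mev mice. In wild-type mice it was 14.0% and 14.7% in mice 1 and 2 but 9.67% in mouse 3, and the mean share was 9.2% in Ptpn6+/mev mice and 12.8% in wild-type mice. The ratio of Ces1f to Ces1d was accordingly 3.17 in wild-type mouse 3, within the Ptpn6+/mev range of 2.87 to 3.21. Wild-type mouse 3 had wild-type levels of Ces2e and Ces2g and a composition closer to the Ptpn6+/mev kidneys in Ces1d.

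Outside the members, the family was nearly silent in these kidneys. Of 12 other carboxylesterase genes listed, 10 had a row in the table and 7 had any count. Ces2b, which among the protein-coding genes shared most windows with Ces2c, was the single one to pass the filter, at 0.20, 0.62 and 0.54 FPKM in Ptpn6+/mev mice and 1.11, 0.75 and 0.66 in wild-type mice. Its groups were apart by a small margin and its log2 fold change was -0.94 (SE 0.43, adjusted p = 0.434 in edgeR's quasi-likelihood fit), or -0.59 without Ptpn6+/mev mouse 1. Ces1a, Ces1c, which encodes a plasma esterase made by liver, Ces1h, Ces2f, Ces2h and Ces4a had at most 7 counts in any library. Ces1b, Ces3b and Ces5a, the mouse counterpart of the urinary protein cauxin of cats, had 0 and were named after their values were seen.

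The genes beside the clusters, nearly all of them beside Ces2 and Ces3a, lay closer to wild-type. Of 19 genes of the table within 250 kb of a member, 16 passed the filter, 6 with a negative and 10 with a positive log2 fold change and a median of 0.08. Beside the Ces1 cluster only Lpcat2 passed, at 1.23 to 2.22 FPKM (log2 fold change 0.30, SE 0.26), while Slc6a2 had 0 counts. Both were named after their values were seen. The surroundings of Ces1 are thus hardly covered. None was called by edgeR's quasi-likelihood test, edgeR's exact test, DESeq2 or limma, and 3 of 16 had an unadjusted p under 0.05, beside 12.2% of all genes. Cdh16, a kidney cadherin that lies between the Ces1 and Ces2 clusters, had a log2 fold change of 0.04 (SE 0.10), and E2f4, a cell cycle transcription factor, 0.06 (SE 0.09, and 0.03 without wild-type mouse 2). The 3 neighbours whose groups were apart were singled out after their values were seen. They were Rrad at -0.48 (SE 0.14), Elmo3 at -0.32 (SE 0.12, and -0.21 without wild-type mouse 2) and Cbfb at 0.35 (SE 0.11). Of all genes tested, 6.38% had their groups apart with Ptpn6+/mev kidneys lower and 14.0% with Ptpn6+/mev kidneys higher.

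**Figure D3:**
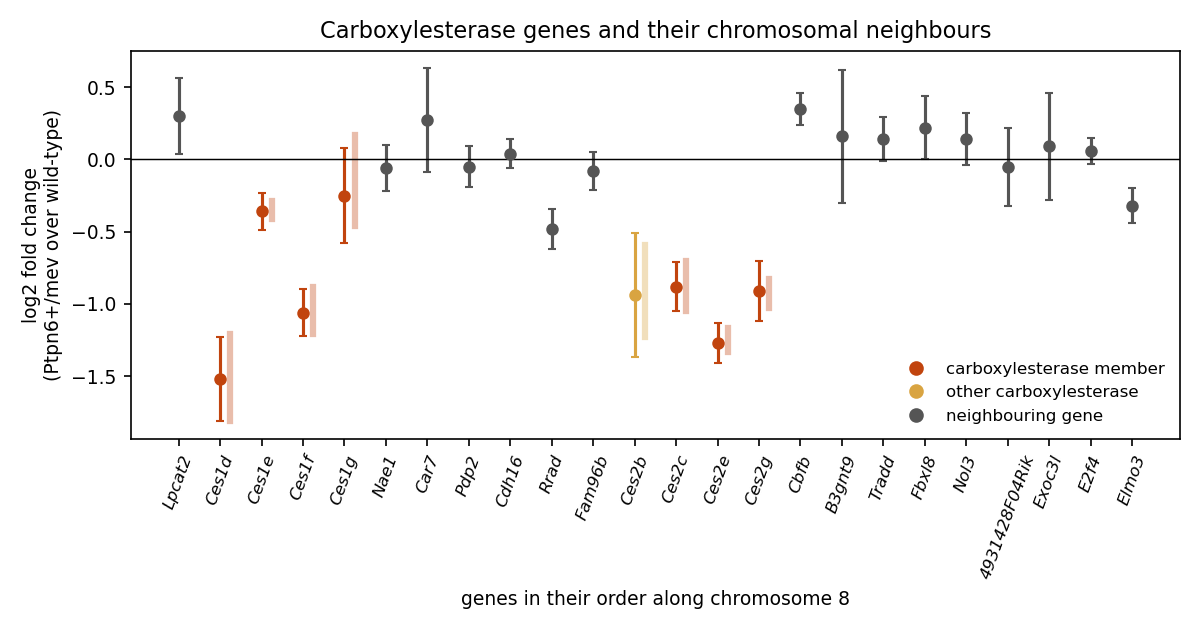
Log2 fold change of Ptpn6+/mev over wild-type (edgeR, error bars SE) for the carboxylesterase genes and their neighbours within 250 kb that passed the filter, in their order along chromosome 8 and not to scale. Pale bars, drawn for the carboxylesterases alone, give the range when each of the 6 libraries is left out in turn, and all of these but that of Ces1g stay below zero. The points of the neighbours lie between -0.48 and 0.35.

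Other enzymes of neutral lipid breakdown were set beside the members, since Ces1d and Ces1f act on triacylglycerol. Of 14 tested genes, 11 had a negative and 3 a positive log2 fold change, with a median of -0.24. None was called by the quasi-likelihood test, 4 had an unadjusted p under 0.05, and the exact test and DESeq2 each called 1, G0s2. G0s2, an inhibitor of adipose triglyceride lipase, had FPKM of 50.91, 50.03 and 48.81 in Ptpn6+/mev mice and 89.76, 164.79 and 70.36 in wild-type mice. Its wild-type order, mouse 2 above mouse 1 above mouse 3, was that of Ces1d (log2 fold change -1.21, SE 0.31). Without wild-type mouse 2 the log2 fold change of G0s2 was -0.71 (SE 0.12), and it then passed the threshold of edgeR's quasi-likelihood test with an adjusted p of 0.0253. Lipa, the lysosomal acid lipase, had a log2 fold change of -0.38 (SE 0.14), or -0.20 without wild-type mouse 2. Abhd5, the coactivator of adipose triglyceride lipase, went the other way at 0.24 (SE 0.09) with groups apart, and was named after its values were seen.

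The other drug and ester hydrolases stayed closer to wild-type. Of 16 tested genes, 10 had a negative and 6 a positive log2 fold change, with a median of -0.08. None was called by the quasi-likelihood test, 4 had an unadjusted p under 0.05, the exact test called 1 and DESeq2 called 2. Esd, esterase D, was the most abundant gene of this list at 1748.07 to 2059.58 FPKM, and its groups overlapped (log2 fold change -0.11, SE 0.15, and 0.10 without wild-type mouse 2). Ephx2, soluble epoxide hydrolase, had FPKM of 77.00, 80.28 and 61.81 in Ptpn6+/mev mice and 103.08, 207.93 and 99.03 in wild-type mice, with wild-type mouse 2 standing far above the rest. Its log2 fold change was -0.99 (SE 0.31) and -0.50 (SE 0.11) without that mouse. Bphl, a hydrolase that activates amino acid ester prodrugs and was named after its values were seen, had a log2 fold change of -0.49 (SE 0.13).

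The retention machinery for these luminal enzymes was read as well. Many carboxylesterases end in a retrieval signal that is read by the KDEL receptors. Kdelr1, Kdelr2, Kdelr3, also named after its values were seen, and Gusb all had positive log2 fold changes with a median of 0.08, all with overlapping groups. None was called by any tool run and 0 had an unadjusted p under 0.05. Kdelr1 was at 0.06 (SE 0.08) and Kdelr2 at 0.03 (SE 0.12), and without wild-type mouse 2 they were at 0.02 and -0.08.

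Transcription factors that are known to act on carboxylesterase genes in liver mostly had negative fold changes that did not pass the threshold. Of 12 tested factors, 10 had a negative and 2 a positive log2 fold change, with a median of -0.21. The quasi-likelihood test called 0 with 5 at an unadjusted p under 0.05, the exact test and DESeq2 each called 4, and the fit without wild-type mouse 2 called 2, Ppara and Nr1i2. Hnf4a, a master factor of proximal tubule and liver, had FPKM of 164.05, 142.18 and 125.76 in Ptpn6+/mev mice and 203.36, 158.00 and 166.62 in wild-type mice, with overlapping groups (log2 fold change -0.36, SE 0.13). Nr1h4, the bile acid receptor FXR, had a log2 fold change of -0.06 (SE 0.22), or 0.09 without wild-type mouse 2. Of the factors called by the exact test, 3 are given here, named after their values were seen. Nr1i2, the xenobiotic receptor PXR, was low throughout, with FPKM of 3.61, 3.01 and 2.68 in Ptpn6+/mev mice and 5.50, 5.90 and 5.81 in wild-type mice. The groups were well apart (log2 fold change -0.96, SE 0.17). Ppara, a fatty acid sensor, was at -0.81 (SE 0.17) and Cebpa at -0.51 (SE 0.10).

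Promoter sequences of RefSeq on GRCm38.p6 were matched for 6 members, Ces1e, Ces1g, Ces2a, Ces2c, Ces2e and Ces2g, each from 250 bases before to 50 bases after the start. They were searched on both strands for AGGTCA, a core of nuclear receptor sites, CAAAGTCCA, an HNF4A site, and TATAAA. The letters TATAAA were found in the Ces1g promoter, 26 bases before the start on the reverse strand, and occurred in 13.6% of all 32851 promoters. The letters AGGTCA were found in the Ces2a promoter, 226 bases before the start, and occurred in 16.3% of all promoters. The other 4 promoters held none of these motifs, of which CAAAGTCCA occurred in 0.475% of all promoters.

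Genes of the proximal tubule, the site of renal carboxylesterase expression, mostly had negative fold changes too. Of 9 tubule markers, all tested, 8 had a negative log2 fold change, with a median of -0.44. The quasi-likelihood test called 0 with 4 at an unadjusted p under 0.05, the exact test and DESeq2 called 3 each, and the fit without wild-type mouse 2 called 4. The summed FPKM of the markers was 1050 to 1200 in Ptpn6+/mev mice and 1380 to 1470 in wild-type mice, a mean of 78.0% of wild-type beside 52.8% for the carboxylesterases. As a percentage of the marker sum, the carboxylesterase sum was between 17.2 and 23.0 in Ptpn6+/mev mice and was 30.5, 34.7 and 24.4 in wild-type mice. The groups remained apart on this scale, by a narrow margin at wild-type mouse 3. Slc27a2, a fatty acid transport protein and the most abundant of the markers, had a log2 fold change of -0.40 (SE 0.19) and Slc34a1 -0.34 (SE 0.20), both with overlapping groups. Without wild-type mouse 2 these were -0.17 and -0.54, and Slc34a1 was -0.22 without wild-type mouse 1. Cubn at -0.84 (SE 0.19), Slc13a3 at -1.25 (SE 0.24) and Miox at -0.46 (SE 0.10) had their groups apart and were named after their values were seen. Of all genes tested, 6.38% had their groups apart in this direction. The other markers, also named after their values were seen, had overlapping groups. Lrp2 was at -0.44 (SE 0.16) and Slc4a4 at -0.51 (SE 0.23). Slc5a2 at -0.04 (SE 0.11) and Slc5a12 at 0.01 (SE 0.17) lay near wild-type. The 4 markers of the S3 segment, the straight part of the proximal tubule, all had negative log2 fold changes with a median of -0.57 and overlapping groups. Slc7a13 was at -0.73 (SE 0.29) and Atp11a at -0.11 (SE 0.13, and -0.20 to 0.00 when single libraries were left out). The part of tubule cell content in the lower carboxylesterase levels was not tested.

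**Figure D4:**
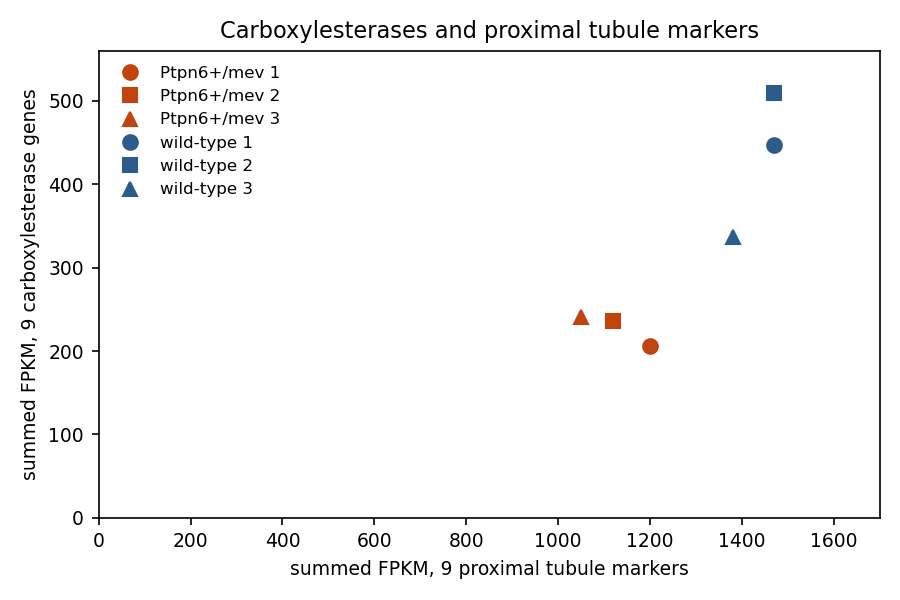
Summed FPKM of the 9 carboxylesterase members against the summed FPKM of 9 proximal tubule markers, 1 point a kidney. The wild-type points, with marker sums of 1380 to 1470 and carboxylesterase sums of 337 to 509, lie above and to the right of the Ptpn6+/mev points.

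Ces1d and Ces1f are also expressed by adipocytes, so markers of fat were read in each kidney. Adipoq, which encodes adiponectin and was named after its values were seen, had FPKM of 5.19, 0 and 0 in Ptpn6+/mev mice and 4.36, 0.07 and 7.30 in wild-type mice. Cidec, a lipid droplet protein, was at 9.39, 1.07 and 0.54 in Ptpn6+/mev mice and 10.77, 10.38 and 7.98 in wild-type mice. Both were high in Ptpn6+/mev mouse 1 and in wild-type mice 1 and 3 and low in Ptpn6+/mev mice 2 and 3, but in wild-type mouse 2, where Ces1d was highest, Adipoq was near 0 and Cidec was high. Cfd, Plin1 and Retn, the last 2 named after their values were seen, were low there like Adipoq. Their FPKM was 1.11, 0.14 and 0 in wild-type mouse 2, 71.64, 3.21 and 4.97 in mouse 1, and 57.03, 2.30 and 4.06 in mouse 3. Over the whole list the summed FPKM was 4.58 to 78.2 in Ptpn6+/mev mice and 13.0 to 98.0 in wild-type mice, with 5 of 6 tested markers at a negative and 1 at a positive log2 fold change. The positive one was Thrsp at 0.86 (SE 0.36), named after its values were seen. It was the single marker of the list with groups apart, at 5.85, 3.09 and 3.70 FPKM in Ptpn6+/mev mice and 2.53, 1.28 and 2.84 in wild-type mice. Of all genes tested, 14.0% had their groups apart in this direction. Cfd was at -1.39 (SE 1.54) and Cidec at -1.40 (SE 0.85). Without Ptpn6+/mev mouse 1 Cidec was at -3.88 (SE 0.27), while Cfd was then left with at most 3 counts in a Ptpn6+/mev library. Without Ptpn6+/mev mouse 2 or 3 Cidec was at -0.91 or -0.89 and Cfd at -0.80 or -0.81. Cfd was also at -0.80 without wild-type mouse 1. With all libraries the quasi-likelihood test, the exact test and DESeq2 called none of the list, and 1, Thrsp, which was higher in Ptpn6+/mev mice, had an unadjusted p under 0.05. Without Ptpn6+/mev mouse 1 the quasi-likelihood test of edgeR called Cidec (adjusted p = 0.019). The part of fat in the carboxylesterase levels was not tested.

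Other markers that could move with the members were also read. Of 8 hepatocyte markers 4 passed the filter. Alb, named after its values were seen, was low at 1.70 to 2.23 FPKM in Ptpn6+/mev mice and 3.68 to 6.29 in wild-type mice (log2 fold change -1.49, SE 0.27), and Apob had a log2 fold change of -1.43 (SE 0.20). Ttr was at 0.31 (SE 0.22), or 0.14 without wild-type mouse 3 and 0.56 without wild-type mouse 2. The hepatocyte list summed to 35.0 to 45.7 FPKM in Ptpn6+/mev mice and 33.2 to 61.6 in wild-type mice. In this list the quasi-likelihood test called 0, with 2 at an unadjusted p under 0.05, while the exact test, DESeq2 and the fit without wild-type mouse 2 called 2 each, Alb and Apob in the exact test and in that fit. Macrophage markers had a median of 0.20, with Lyz2 at 0.42 (SE 0.37, and 0.15 to 0.75 when single libraries were left out) and C1qb at 0.18 (SE 0.20, and 0.00 to 0.32 when single libraries were left out), and 0 had an unadjusted p under 0.05 or were called by the exact test or DESeq2. They summed to 165 to 270 FPKM in Ptpn6+/mev mice and 108 to 237 in wild-type mice. Injured tubule markers had a median of 0.12, with 3 negative and 5 positive values. Spp1 was at -0.38 (SE 0.14, and -0.21 without wild-type mouse 2) and Clu at 0.08 (SE 0.14, and -0.03 without wild-type mouse 2). The 3 injury markers whose groups were apart were all higher in Ptpn6+/mev mice and were named after their values were seen, Vcam1 at 1.05 (SE 0.28), Cdkn1a at 0.56 (SE 0.16) and Havcr1 at 0.27 (SE 0.10). Of all genes tested, 14.0% had each Ptpn6+/mev kidney above each wild-type kidney in FPKM. The list summed to 26300 to 32100 FPKM in Ptpn6+/mev mice and 29600 to 38400 in wild-type mice, most of it Spp1. For this list the quasi-likelihood test called 0, with 4 at an unadjusted p under 0.05, and the exact test called 1, Vcam1, as higher and DESeq2 also 1. Without wild-type mouse 2 the quasi-likelihood test of edgeR called 1, Krt20, also named after its values were seen, which was at 0.65 (adjusted p = 0.0289) there and at 0.16 (SE 0.29) with all libraries. The part of these cells and of injury in the carboxylesterase levels was not tested.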

How the data were processed

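Left kidney tissue of 3 Ptpn6+/mev and 3 wild-type mice was sequenced as poly-A libraries. The authors aligned reads to GRCm38.p5. The submitters' processing notes name Bowtie2, TopHat2 2.0.3.12, Cufflinks and RSEM, and the tool that gave the counts is not stated. The deposited table holds estimated counts per gene, of which 1744 genes had fractional values, and FPKM values that the authors computed per gene, for 21367 genes. Columns named HE were read as the heterozygous Ptpn6+/mev mice.

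Counts were rounded, filtered with filterByExpr and TMM-normalised, and both groups were compared with the quasi-likelihood test of edgeR 4.0.16 in R 4.3.3, with Benjamini-Hochberg adjustment over all 13036 genes tested. Alternatives were other size factors, DESeq2 1.42.0, edgeR's exact test, limma 3.58.1 on log2(FPKM + 1) and log2(FPKM + 0.1), no filter, at least 10 counts in every library, a replicate block, summed paralogs, and each library left out. FPKM sums and shares have no test. Limits from 0 counts use 3 counts and cover counting error only.

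Genes named in the text are all members, Ptpn6, other carboxylesterases with a count, called genes and the 2 most abundant genes of each list and of the neighbours, and the 5 genes most like Ces1d and Ces2e. Others are marked as named after their values were seen. The members and lists were chosen with earlier results of these data known. The active-site motif was searched as glycine, any residue, serine, alanine and a pair of glycines, loosened at its second position after Ces2a and Ces3a had no match. 1 gene of the transcription factor list is not reported here.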

Additional observations from a re-analysis of the deposited data

How the results depend on the processing

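All 7 tested members kept a negative log2 fold change under each alternative run, except Ces1g, which ran from -0.46 to 0.17 when single libraries were left out and was positive without wild-type mouse 1, leaving 6. The number of members called was 1 in the quasi-likelihood fit, 5 by DESeq2, 5 by edgeR's exact test, 2 without the filter (Ces1f and Ces2e) and 0 to 4 when single libraries were left out. The number of genes called overall was 18 in the quasi-likelihood fit, 388 by DESeq2, 390 by the exact test, 52 without the filter and 1 to 231 when single libraries were left out. Among the gene lists of hydrolases, receptors and transcription factors 0 were called in the quasi-likelihood fit, 7 by DESeq2, 6 by the exact test and 0 to 3 when single libraries were left out, the 3 being reached without wild-type mouse 2. The causes were not tested.

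The adjusted p of Ces2e ran from 8.55e-10 by DESeq2 to 0.167 without Ptpn6+/mev mouse 3, and its log2 fold change from -1.33 to -1.08 over all alternatives. It missed the threshold without each of the Ptpn6+/mev mice and without wild-type mouse 1. For Ces1d the log2 fold change ran from -1.81 to -1.21, for Ces1f from -1.21 to -0.88 and for Ces2c from -1.05 to -0.70 when single libraries were left out.

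Same-numbered libraries did not deviate together, with correlations of -0.144, -0.184 and -0.13, so the numbers do not pair the mice. With the replicate number as a block, 0 members and 1 gene overall were called, and the log2 fold change of Ces2e was -1.27 (adjusted p = 0.0962 in edgeR).

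Changes of direction outside the members were small. Nr1h4 stood at 0.05 in both limma fits, 0.06 without Ptpn6+/mev mouse 2, 0.07 without wild-type mouse 1 and 0.09 without wild-type mouse 2, within a range of -0.28 to 0.09 when single libraries were left out. Without wild-type mouse 2 Esd stood at 0.10, Kdelr2 at -0.08 and Clu at -0.03, the ends of ranges that reached -0.21, 0.10 and 0.24 when single libraries were left out. Cdh16 stood at -0.03 without Ptpn6+/mev mouse 1 and -0.01 without wild-type mouse 1, within a range of -0.03 to 0.11. Krt20 stood at -0.04 without wild-type mouse 1, -0.01 without wild-type mouse 3 and 0.65 without wild-type mouse 2. Of 777 values for 52 other genes under the alternatives, 708 kept their direction and side of the threshold, 50 newly passed it and 7 no longer did. In the limma fits the median of all genes lay at 0.062 and 0.076.

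With 3 mice a group and about a 2.3-fold spread of Ces1d among wild-type kidneys, small differences cannot be resolved, and Ces2a and Ces3a are below what this depth can compare.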

Other observations

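The genes whose levels followed Ces1d and Ces2e most closely were read over the 6 libraries, among 11853 genes of at least 1 FPKM, by Pearson correlation of log2(FPKM + 1). This is a description, since all points share the same libraries and groups. For Ces1d they were Cryz, a quinone reductase (r = 0.994), Cox6b2, a cytochrome c oxidase subunit (0.994), Plscr4, a phospholipid scramblase (0.991), Cd36, the fatty acid translocase (0.988), and Hadh, a mitochondrial enzyme of fatty acid oxidation (0.986). Cd36 had FPKM of 52.52, 51.57 and 55.14 in Ptpn6+/mev mice and 169.22, 263.61 and 103.12 in wild-type mice, with the same order of wild-type mice as Ces1d and a log2 fold change of -1.98 (adjusted p = 0.114 in edgeR's quasi-likelihood fit). It was -1.29 without wild-type mouse 2 (adjusted p = 0.0129 in edgeR) and -2.33 without wild-type mouse 3 (adjusted p = 0.0323 in edgeR), and its adjusted p was 0.000534 by the exact test and 0.018 by DESeq2. Cryz moved from -0.57 to -0.37 without wild-type mouse 2.

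For Ces2e they were Flot1, a membrane raft protein (r = 0.984), Xdh, xanthine dehydrogenase (0.982), Aldh9a1, an aldehyde dehydrogenase (0.981), Hpn, the membrane protease hepsin (0.980), and Slc5a1, the glucose transporter SGLT1 (0.980). Xdh had FPKM of 21.70, 25.36 and 25.16 in Ptpn6+/mev mice and 40.73, 36.73 and 39.50 in wild-type mice. It fell with a log2 fold change of -0.76 (adjusted p = 0.0366 in edgeR's quasi-likelihood fit), the single one of these 10 genes past the threshold in that fit with all libraries. Xdh missed the threshold in both limma fits (adjusted p = 0.0555 and 0.0568) and with the replicate block (0.147). In edgeR's quasi-likelihood fits its adjusted p was also 0.138, 0.0869 and 0.226 without Ptpn6+/mev mouse 1, 2 or 3 and 0.161 without wild-type mouse 1. By edgeR's exact test Cd36, Slc5a1 and Hpn passed as well as Xdh, with adjusted p of 0.000534, 0.00701 and 0.0137. By DESeq2 Cd36, Slc5a1, Hpn, Flot1, Cryz and Aldh9a1 passed as well as Xdh. Leaving Xdh aside, their adjusted p by DESeq2 ran from 0.00174 for Hpn to 0.0485 for Aldh9a1. The wild-type kidneys were even in Ces2e, with levels within 1.08-fold of each other, and uneven in Ces1d, within 2.3-fold.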
